A study of Mus musculus with 24 samples.

Results

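Chd4-ECko liver sinusoidal endothelial cells (LSECs) were compared directly with Brg1-ECko LSECs. This comparison holds 6 of the 24 libraries of the series, 3 LSEC libraries of each single mutant, chosen by their labels. The libraries were bulk RNA-seq of mouse livers at embryonic day 12.5, separated into LSECs, captured with beads against CD146, and the remaining non-EC liver cells. Values are TPM, a unit that corrects read numbers for transcript length and scales every library to the same total, and the values keep no read number per library. The study's methods state a nominal read number, and the depth behind a single value was not analysed here. Chd4-ECko embryos were Chd4 fl/fl and Brg1 fl/+, Brg1-ECko embryos were Brg1 fl/fl and Chd4 fl/+, and both carried VE-cadherin-Cre, so each single mutant also carried 1 floxed allele of the other gene. The 3 control LSEC libraries were Cre-negative, and the 3 Brg1/Chd4-ECdko libraries carried floxed alleles of both genes on both chromosomes with the same Cre. VE-cadherin-Cre recombines in endothelium, and earlier work cited by the study describes activity of this Cre in part of the blood cells of the liver at a later embryonic stage, a limit of the model for every mutant group. Each library came from 1 embryo, and the labels do not say which embryos shared a litter or which LSEC and non-EC libraries shared an embryo.

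CHD4 and BRG1 are ATPases that use ATP to move or evict nucleosomes. CHD4 is the motor of NuRD, a complex that couples nucleosome movement to removal of acetyl groups from histones and has long been studied for its part in gene silencing. BRG1, encoded by Smarca4, is a motor of the BAF (SWI/SNF) complexes, which are best known for opening chromatin at enhancers and promoters. The fetal liver is at this stage the main site of blood formation, and its sinusoids are lined by LSECs. The direct comparison asks where the remodelers leave LSEC transcripts at different levels, and a second contrast asks where the mean of both mutants differs from control, which does not require a like level in both.

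Differences are given on the log2(TPM + 1) scale as Chd4-ECko minus Brg1-ECko, from limma over the 12 LSEC libraries, and a positive value is higher in Chd4-ECko. Genes were tested where 3 or more LSEC libraries reached 1 TPM, and of these 13444 genes 58 differed at an adjusted p under 0.05, or 0.431%. Higher in Chd4-ECko LSECs were 53 (0.394%) and lower were 5 (0.0372%). Of the 53, 2 genes, Prl3b1 and Slc30a2, reached 1 TPM in the Chd4-ECko libraries alone, so that they could be tested only because they were high there. Differentially expressed genes (DEGs), with a difference above 1 in size as well, numbered 41 (0.305%), 36 higher and 5 lower. Genes with an unadjusted p under 0.05 numbered 1459, or 10.9%, of which 592 were higher and 867 lower. Higher genes were the majority of the called genes and not of the genes at this lower bar. The median difference of all tested genes was -0.06. In the plot of all tested genes by difference and p, the called genes lie mostly on the right.

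**Figure D1:**
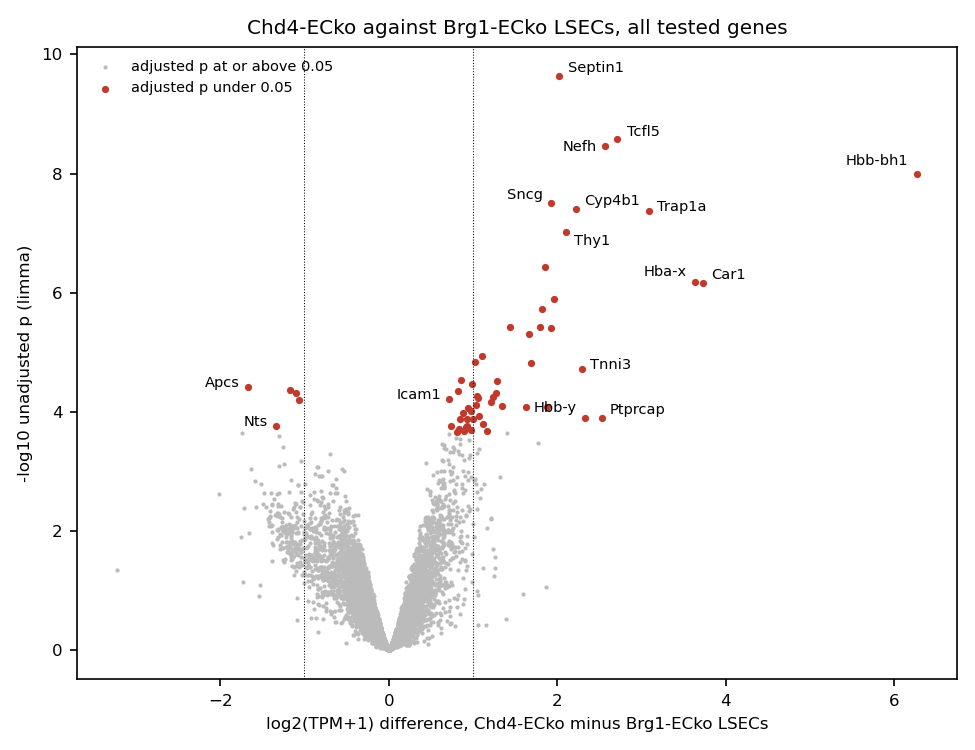
Each point is 1 of 13444 genes, with the log2(TPM+1) difference between Chd4-ECko and Brg1-ECko LSECs on the horizontal axis and -log10 of limma's unadjusted p on the vertical axis. Red points are the 58 genes with an adjusted p under 0.05, and dotted lines mark a difference of 1 in size. Septin1 has the smallest p and Hbb-bh1 the largest difference, 6.27.

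The fractions and the targets were checked first. Cdh5, the VE-cadherin gene, ran from 194 to 368 TPM over the LSEC fraction and from 3.33 to 13.4 TPM over the non-EC fraction, 12 libraries each. Stab2, a scavenger receptor of sinusoids, lay between 63.9 and 146 TPM in LSECs and at or under 1.19 TPM in non-EC cells. Mesenchymal transcripts were also enriched with the captured cells. The 15 mesenchymal markers summed to 1595 to 2692 TPM over the LSEC fraction and to 66.2 to 233 TPM over the non-EC fraction. The LSEC libraries thus held mesenchymal as well as endothelial transcripts, and the part of mesenchymal cells was not tested. Chd4 was at 223, 168 and 252 TPM in the Chd4-ECko libraries and at 351, 225 and 272 TPM in the Brg1-ECko libraries, which overlap (difference -0.39, 95% interval -0.76 to -0.02, limma adjusted p = 0.426). Smarca4 was at 141, 99.9 and 140 TPM in Chd4-ECko and at 157, 111 and 127 TPM in Brg1-ECko (difference -0.05, 95% interval -0.41 to 0.30, adjusted p = 0.948). TPM summed over whole genes therefore did not separate the genotypes at their targets, and reads over the floxed exons were not analysed here. By quantitative PCR the study found lower Chd4 and Brg1 transcripts in E12.5 LSECs of the matching mutants, captured with an antibody against LYVE1. The labels were taken as given.

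One library stood apart and bears on the comparison. The first Brg1-ECko LSEC library held Afp, the fetal albumin of hepatoblasts, at 12314 TPM, where the other 5 libraries of the comparison lay between 1505 and 2749 TPM. The 25 hepatoblast markers summed to 37129 TPM there, to 8622 and more in the other Brg1-ECko libraries and to 4865 to 7433 TPM in the Chd4-ECko libraries. Y-linked transcripts also divided the groups unevenly. Eif2s3y was at 31.3, 34.9 and 0.52 TPM in Chd4-ECko and at 0.69, 1.73 and 19.9 TPM in Brg1-ECko, so that 2 of 3 against 1 of 3 libraries were high. With Eif2s3y as a covariate, an alternative chosen after seeing the data, 24 genes were called, and each of them is among the 58. Without the first Brg1-ECko library 70 genes were called, 47 higher and 23 lower, of which 41 are among the 58. The share of higher genes among the called ones was 91.4% in the fit reported here, 67.1% without the first Brg1-ECko library, and 50.8% with the hepatoblast level as a covariate, where 59 genes were called and 24 are among the 58. Leaving out the second or the third Chd4-ECko library lowered the DEGs from 41 to 22 and 19.

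Promoters of genes that the comparison turns on are shown here, 250 bases before to 50 bases after the start of the canonical transcript, from GRCm39 with the GENCODE annotation. The first 3 belong to embryonic globin genes, which moved together, and capitals mark the letters CCACCC (a box bound by KLF factors), the letters CCAAT, and the TATA-like letters ATAAAA, each searched on both strands.
Hbb-bh1: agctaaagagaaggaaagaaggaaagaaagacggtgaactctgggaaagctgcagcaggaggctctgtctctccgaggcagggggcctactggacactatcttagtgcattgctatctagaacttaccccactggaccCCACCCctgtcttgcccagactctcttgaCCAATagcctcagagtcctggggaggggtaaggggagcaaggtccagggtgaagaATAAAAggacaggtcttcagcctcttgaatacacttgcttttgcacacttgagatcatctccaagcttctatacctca
Hbb-y: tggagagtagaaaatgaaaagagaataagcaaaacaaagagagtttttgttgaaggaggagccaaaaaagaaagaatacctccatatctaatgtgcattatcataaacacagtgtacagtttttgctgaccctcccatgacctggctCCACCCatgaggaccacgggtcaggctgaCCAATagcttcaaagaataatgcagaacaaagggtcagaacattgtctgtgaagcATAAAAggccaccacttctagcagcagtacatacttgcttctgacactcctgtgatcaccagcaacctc
Hba-x: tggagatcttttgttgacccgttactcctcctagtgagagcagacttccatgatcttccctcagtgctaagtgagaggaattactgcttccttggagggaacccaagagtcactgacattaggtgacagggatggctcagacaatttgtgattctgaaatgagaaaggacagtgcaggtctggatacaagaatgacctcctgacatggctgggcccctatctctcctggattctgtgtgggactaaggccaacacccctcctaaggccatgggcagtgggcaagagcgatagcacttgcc
The windows are chr7:103492322-103492621 (minus strand) for Hbb-bh1, chr7:103502374-103502673 (minus strand) for Hbb-y and chr11:32226150-32226449 (plus strand) for Hba-x. Hbb-bh1 and Hbb-y hold the 3 motifs once each and in the same order, 29 bases from the start of CCACCC to that of CCAAT and 55 bases from there to ATAAAA. None of the 3 is in the Hba-x window. CCACCC occurs in 36.6%, CCAAT in 39.5% and ATAAAA in 12.9% of 13442 promoters of tested genes, and all 3 in 1.61%. The letters ATAAAA were chosen after the sequences were seen.

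The next windows belong to Septin1, the gene with the smallest p, at chr7:126817979-126818278 (minus strand), and to Icam1 at chr9:20926422-20926721 (plus strand). Capitals mark CG, the dinucleotide that can be methylated.
Septin1: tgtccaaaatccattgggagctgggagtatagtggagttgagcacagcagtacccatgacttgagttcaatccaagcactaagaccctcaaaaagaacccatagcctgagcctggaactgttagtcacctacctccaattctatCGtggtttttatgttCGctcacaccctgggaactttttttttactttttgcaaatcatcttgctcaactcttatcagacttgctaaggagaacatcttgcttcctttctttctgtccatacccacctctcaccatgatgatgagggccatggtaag
Icam1: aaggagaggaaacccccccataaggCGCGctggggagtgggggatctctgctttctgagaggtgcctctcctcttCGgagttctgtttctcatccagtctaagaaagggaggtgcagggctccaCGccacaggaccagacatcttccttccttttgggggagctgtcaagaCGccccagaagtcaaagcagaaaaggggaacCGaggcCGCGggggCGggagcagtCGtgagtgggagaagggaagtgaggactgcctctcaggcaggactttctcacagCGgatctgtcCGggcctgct
Septin1 holds 2 CG dinucleotides and Icam1 holds 12 in these 300 bases. The median was 5.5 over the promoters of the 58 called genes and 17 over all tested promoters. Windows with 5 or fewer CG numbered 29 of 58 among the called genes, or 50%, against 14.3% of all tested promoters, given as a description. The NF-kB letters GGAAATTCC occur in 42 of the 13442 windows, 0.312%, and in none of the 58. The Icam1 window printed here does not hold the primer sequences that the study gives for its upstream Icam1 region. Its CG and NF-kB counts therefore do not bear on that region.

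Septin1 encodes a septin, a GTP-binding cytoskeletal protein abundant in leukocytes, and lies at chr7:126812948-126832302. It was at 66.9, 83.8 and 73.6 TPM in Chd4-ECko LSECs and at 16.02, 17.00 and 19.76 TPM in Brg1-ECko LSECs. The control libraries lay between, at 32.9, 34.3 and 31.5 TPM, and no library of any of the 3 groups overlapped another group. The difference was 2.03 (SE 0.13, limma adjusted p = 3.06e-06), a 4.25-fold ratio of mean TPM. Septin1 differed from control in both single mutants and in opposite directions, by 1.16 in Chd4-ECko (adjusted p = 0.000629) and by -0.87 in Brg1-ECko (adjusted p = 0.0472). The call in Brg1-ECko was kept in 6 of 23 other fits and lost without any 1 of 11 LSEC libraries, all but the third Brg1-ECko library (adjusted p up to 0.587). The 2 comparisons with control share the control libraries. The Brg1/Chd4-ECdko libraries were at 49.4, 53.8 and 54.8 TPM, between Chd4-ECko and control. In every one of 23 other fits the difference of Septin1 stayed called, between 1.93 and 2.11. Exons of Septin1 share 6.45% of their bases with Mylpf and 5.29% with Zfp553 on the other strand, and whether counting used strand is not given in the sources used here.

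Icam1 encodes an adhesion receptor for leukocytes on endothelium and lies at chr9:20926672-20940113. It was at 50.8, 55.6 and 56.0 TPM in Chd4-ECko and at 33.0, 32.0 and 32.3 TPM in Brg1-ECko. All Chd4-ECko libraries were above, and all Brg1-ECko libraries below, the control libraries at 38.9, 42.5 and 35.4 TPM. The difference was 0.72 (SE 0.13, adjusted p = 0.0245), a 1.67-fold ratio of means. Against control neither single mutant passed the test on its own, with 0.47 in Chd4-ECko (adjusted p = 0.151) and -0.25 in Brg1-ECko (adjusted p = 0.548). Brg1/Chd4-ECdko libraries were at 35.5, 37.3 and 46.2 TPM, within or near the control range. The call was lost without the second or the third Chd4-ECko or the second or the third Brg1-ECko library (adjusted p up to 0.14), while the difference kept to 0.70 to 0.77. It was also lost with the hepatoblast level as a covariate (0.0936) and in a fit of the 6 libraries alone (0.146), and kept with Eif2s3y as a covariate (0.0352).

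**Figure D2:**
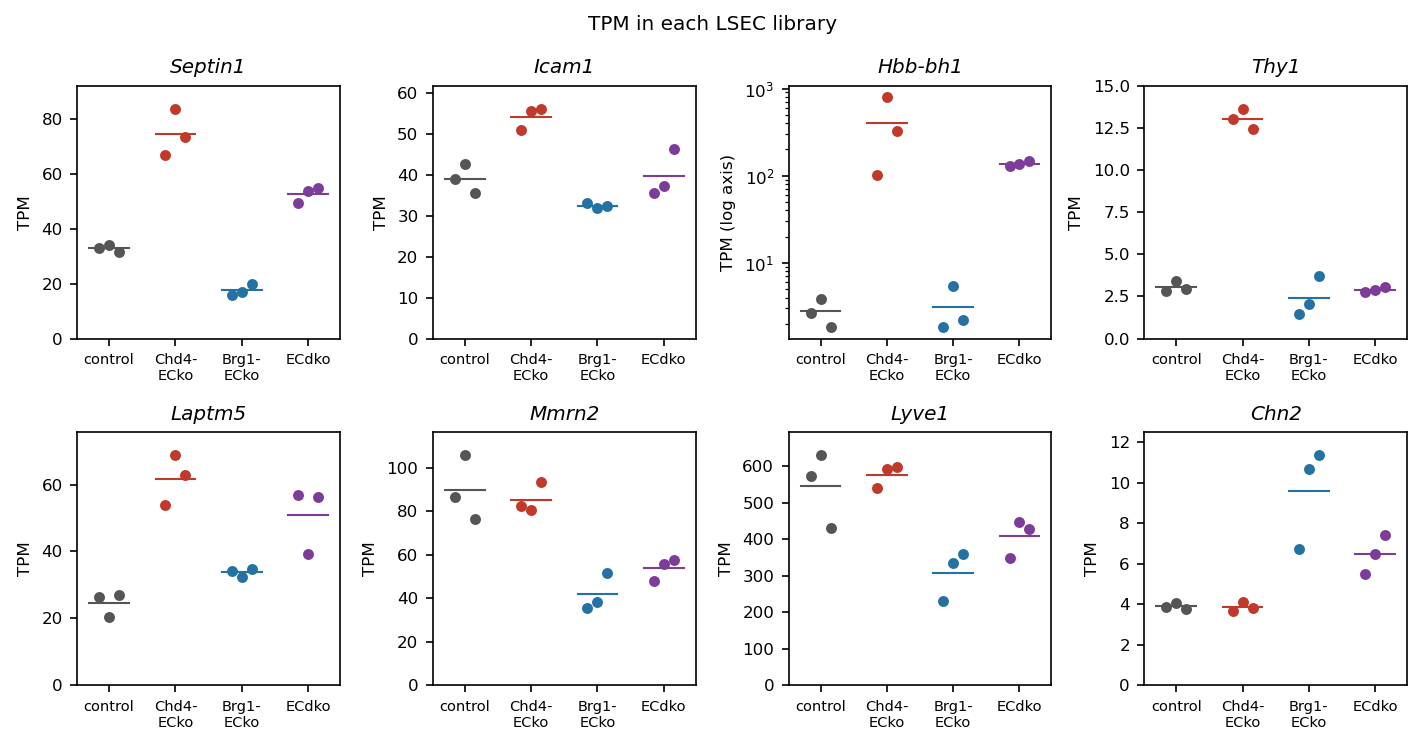
TPM in each of the 12 LSEC libraries for 8 genes, 3 points per group with the group mean as a line; the axis of Hbb-bh1 is logarithmic and the others start at 0. In the panels of Septin1 and Icam1 the control points lie between those of Chd4-ECko and Brg1-ECko, while in those of Mmrn2 and Lyve1 the Brg1-ECko points lie below all control points and the Chd4-ECko points in the control range.

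Other inflammatory transcripts were mostly not called. Of 25 NF-kB response genes tested, Icam1 alone was called, beside 0.431% of all tested genes, 13 differences were above 0 and 12 below, and the median was 0.01 beside -0.06 over all genes. Tnf, the cytokine, was at 2.17, 1.93 and 2.33 TPM in Chd4-ECko and at 0.26, 0.48 and 1.03 TPM in Brg1-ECko (difference 1.01, adjusted p = 0.151). Over the other fits the Tnf difference ran from 0.58 with the hepatoblast covariate to 1.85 with a pseudocount of 0.1 TPM, and it was called in 1 of 22, that with the replicate block (adjusted p = 0.0431). The single-mutant libraries of Tnf do not overlap, and 13% of all tested genes have groups that do not overlap. Vcam1, another adhesion receptor, had the opposite order, at 43.7, 57.5 and 55.5 TPM in Chd4-ECko and 78.2, 79.2 and 67.8 TPM in Brg1-ECko (difference -0.52, adjusted p = 0.243). Rela, an NF-kB subunit, differed by -0.06 (95% interval -0.35 to 0.23), and Il1b by 0.12 (95% interval -0.52 to 0.76), with Il1b under 2 TPM in each of the 6 libraries. Of 25 interferon response genes none was called, with a median of -0.04 (2 at an unadjusted p under 0.05 were higher and 2 lower).

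Plaur encodes the urokinase receptor, which concentrates plasminogen activation at the cell surface, and lies at chr7:24161875-24175394. It was at 13.7, 13.9 and 15.4 TPM in Chd4-ECko and at 6.27, 5.62 and 6.38 TPM in Brg1-ECko, with control at 5.65, 7.67 and 8.08 TPM. Chd4-ECko stood above both other groups, and Brg1-ECko overlapped control. The difference was 1.11 (SE 0.17, adjusted p = 0.00864), and it stayed called in every other fit but the one without the third Chd4-ECko library (adjusted p = 0.0778). Of 13 genes of the plasminogen system tested, Plaur was the 1 called, beside 0.431% of all tested genes, 7 differences were above 0 and 6 below, with a median of 0.02.

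The embryonic globins had the largest median difference of the gene lists, 3.63, and Hbb-bh1 the largest difference of a single gene. Globins carry oxygen in red cells, and Hbb-bh1, Hbb-y and Hba-x belong to the primitive red cells of the early embryo. Hbb-bh1 was at 102, 789 and 328 TPM in Chd4-ECko LSECs and at 1.84, 5.40 and 2.21 TPM in Brg1-ECko LSECs. Control libraries were at 2.67, 3.84 and 1.85 TPM, so Brg1-ECko overlapped control and Chd4-ECko did not. The difference was 6.27 (SE 0.52, adjusted p = 3.37e-05). Hba-x was at 103, 467 and 254 TPM in Chd4-ECko and at 18.2, 13.3 and 22.8 TPM in Brg1-ECko (difference 3.63, SE 0.42, adjusted p = 0.000845). Hbb-y was at 61.2, 349 and 137 TPM against 27.6, 31.8 and 24.3 TPM (difference 2.33, SE 0.44, adjusted p = 0.0371). All 3 tested members of this list were called, beside 0.431% of all genes, and in each the second Chd4-ECko library was the highest. In non-EC cells the same 3 genes differed by a median of 3.52, with 3.52 for Hba-x and 2.79 for Hbb-y (adjusted p = 0.614 for both), and none was called there. The call of Hbb-y was lost without any one of 9 of the 12 LSEC libraries (all but the second and the third controls and the first Chd4-ECko library, adjusted p up to 0.196). It was also lost with the Eif2s3y covariate (0.124), with the hepatoblast covariate (0.146), without a variance trend, without a filter on low values and among the 6 libraries alone (0.200). The calls of Hbb-bh1 and Hba-x were kept in all 23 other fits. Embryonic globin genes are similar in sequence, and how reads shared between them were assigned is not given in the sources used here.

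Transcripts of later red cells were mostly not called. The 4 adult globin genes tested differed by a median of 0.28 and none was called (also none at an unadjusted p under 0.05). Their summed level ran from 548 to 1672 TPM in Chd4-ECko and from 308 to 1938 TPM in Brg1-ECko, so the groups overlap. Of 22 other erythroid genes 1 was called, beside 0.431% of all tested genes. It was Car1, which encodes a carbonic anhydrase of red cells, while 21 of the 22 differences were above 0, with a median of 0.40. Without the first Brg1-ECko library the median was 0.72, and 9 of the 22 were higher at an unadjusted p under 0.05, where 1 was with all libraries. Car1 was at 20.2, 58.8 and 18.1 TPM in Chd4-ECko and at 2.14, 1.91 and 0.14 TPM in Brg1-ECko (difference 3.73, SE 0.44, adjusted p = 0.000845). The erythroid list summed to 663 to 983 TPM in Chd4-ECko and to 286 to 823 TPM in Brg1-ECko, where the third library was the lowest of all 12. The part of red cell content in the globin differences was not tested. In bulk libraries, more cells of a type and more RNA per cell cannot be told apart.

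Markers of other lineages were the gene list with the most called members. Some of them were present in control LSECs and lower in control non-EC cells. Sncg had means of 14.1 and 0 TPM in control LSECs and control non-EC cells, Cpa1 4.10 and 0.03 TPM, and Thy1 3.06 and 0.41 TPM. Nefh (1.23 and 4.61 TPM) and Trap1a (0.08 and 0.32 TPM) had the opposite order. Of 23 tested markers of neurons, heart muscle, germ cells, placenta and pancreas, 8 were called, all higher in Chd4-ECko, beside 0.394% of all tested genes. The median was 0.65, or 0.39 without the first Brg1-ECko library, where 8 were called as well. Of the 23 differences 18 were above 0 and 5 below, the lowest -1.03 for Tnnc1, and at an unadjusted p under 0.05 there were 12 higher and 1 lower. In non-EC cells 13 of the list were tested, with a median of 0.81 and none called, and Trap1a differed there by 1.76 (adjusted p = 0.594) and Tnni3 by 1.31 (0.969). This list was written with earlier results of these data known. Tcfl5, a bHLH transcription factor of the male germ line, was at 13.50, 17.84 and 10.96 TPM in Chd4-ECko and at 1.08, 1.31 and 1.45 TPM in Brg1-ECko (difference 2.71, SE 0.20, adjusted p = 1.57e-05). Nefh, the heavy neurofilament chain, was at 13.8, 20.2 and 14.0 TPM against 1.45, 2.16 and 1.95 TPM (difference 2.57, SE 0.20, adjusted p = 1.57e-05). Trap1a, an X-linked germ cell antigen, was at 8.36, 19.5 and 9.02 TPM against 0.48, 0.34 and 0.57 TPM (difference 3.09, SE 0.29, adjusted p = 8.04e-05). In these 3 genes the Brg1-ECko mean differed from control by less than 0.5, and no comparison of Brg1-ECko with control called them. Thy1, a surface glycoprotein of neurons and T cells, was at 13.1, 13.6 and 12.4 TPM against 1.44, 2.03 and 3.70 TPM (difference 2.10, SE 0.21, adjusted p = 0.000162). Tnni3, cardiac troponin I, was at 7.98, 30.3 and 10.7 TPM against 1.69, 3.37 and 1.40 TPM (difference 2.29, SE 0.36, adjusted p = 0.0124). Its call was lost with the Eif2s3y covariate (adjusted p = 0.0575), with the hepatoblast covariate (0.0553) and among the 6 libraries alone. Prl3b1, a placental lactogen, was at 3.48, 3.95 and 2.30 TPM in Chd4-ECko and at 0.25 TPM or less in Brg1-ECko. It reached the filter on low values through the Chd4-ECko libraries alone, so its level is given as a description and its call among the 8 carries no weight. Cyp4b1, a cytochrome P450 outside these lists, was at 6.54, 7.34 and 4.72 TPM against 0.55, 0.39 and 0.66 TPM (difference 2.22, SE 0.21, adjusted p = 8.04e-05).

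In Sncg and Cpa1 the Brg1-ECko libraries lay below the control libraries, and neither gene passed the test of Brg1-ECko against control. Sncg, gamma-synuclein, was at 33.3, 31.4 and 31.4 TPM in Chd4-ECko and at 6.45, 8.39 and 8.35 TPM in Brg1-ECko, with control at 16.9, 12.0 and 13.3 TPM. The 3 groups did not overlap, and the difference was 1.93 (SE 0.18, adjusted p = 8.04e-05). Cpa1, a pancreatic carboxypeptidase, was at 9.89, 7.51 and 6.29 TPM against 0.98, 1.92 and 1.82 TPM, with control at 3.72, 5.45 and 3.13 TPM (difference 1.79, SE 0.24, adjusted p = 0.00327). Against control, Sncg differed by 1.15 in Chd4-ECko (adjusted p = 0.00573) and by -0.78 in Brg1-ECko (adjusted p = 0.187). Cpa1 differed from control by 0.81 in Chd4-ECko (adjusted p = 0.239) and by -0.98 in Brg1-ECko (adjusted p = 0.248). Sncg lies on the strand opposite Mmrn2, described with the endothelial genes, and 6.57% of its exon bases overlap exons of Mmrn2.

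Leukocyte transcripts are described next. Of 18 leukocyte signalling genes tested 3 were called, all higher in Chd4-ECko, beside 0.394% of all tested genes. This list was written with earlier results of these data known, so its counts, signs and median are a description. Of the 18 differences 17 were above 0, and the median was 0.54 beside -0.06 over all genes. Besides Septin1 these were Ptprcap, which binds the leukocyte phosphatase CD45, and Laptm5, a lysosomal membrane protein of blood cells. Laptm5 was at 53.8, 68.7 and 62.9 TPM in Chd4-ECko and at 34.1, 32.3 and 34.7 TPM in Brg1-ECko (difference 0.85, SE 0.16, adjusted p = 0.0371). Both mutants lay above the control libraries, at 26.2, 20.4 and 27.0 TPM. The call was lost without any one of 9 LSEC libraries, all but the second control, the first Chd4-ECko and the second Brg1/Chd4-ECdko library (adjusted p up to 0.206), and with the Eif2s3y covariate (0.106) or the hepatoblast covariate (0.161). Ptprcap was at 15.2, 25.2 and 10.5 TPM against 6.47, 1.81 and 0.21 TPM (difference 2.53, SE 0.48, adjusted p = 0.0371). It stayed called without the second control library and, more firmly, without the first Brg1-ECko library (adjusted p = 0.000391), and its call was lost without any one of the other 10 (adjusted p up to 0.212). With the Eif2s3y covariate it was lost (0.103), and with the hepatoblast covariate it was kept (0.00115). Exons of Rps6kb2 on the other strand cover 76.0% of those of Ptprcap. Of 32 myeloid genes 1 was called, beside 0.431% of all tested genes. Of the 32 differences 27 were above 0, with a median of 0.51, and 11 were higher and 0 lower at an unadjusted p under 0.05. The called gene was Alox5, the 5-lipoxygenase of leukotriene synthesis, at 5.15, 15.4 and 10.4 TPM against 2.75, 0.80 and 2.46 TPM (difference 1.88, adjusted p = 0.0283). It was lost without the second or the third Chd4-ECko, the second Brg1-ECko or the third Brg1/Chd4-ECdko library (adjusted p up to 0.196), and with the Eif2s3y covariate (0.0865) or the hepatoblast covariate (0.0553). Ptprc, which encodes CD45 itself and was chosen for mention after its value was seen, differed by 0.16 (adjusted p = 0.842). The leukocyte list summed to 643 to 908 TPM in Chd4-ECko, 527 to 555 TPM in Brg1-ECko and 437 to 536 TPM in control LSECs. The part of blood cells among the captured cells was not tested.

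**Figure D3:**
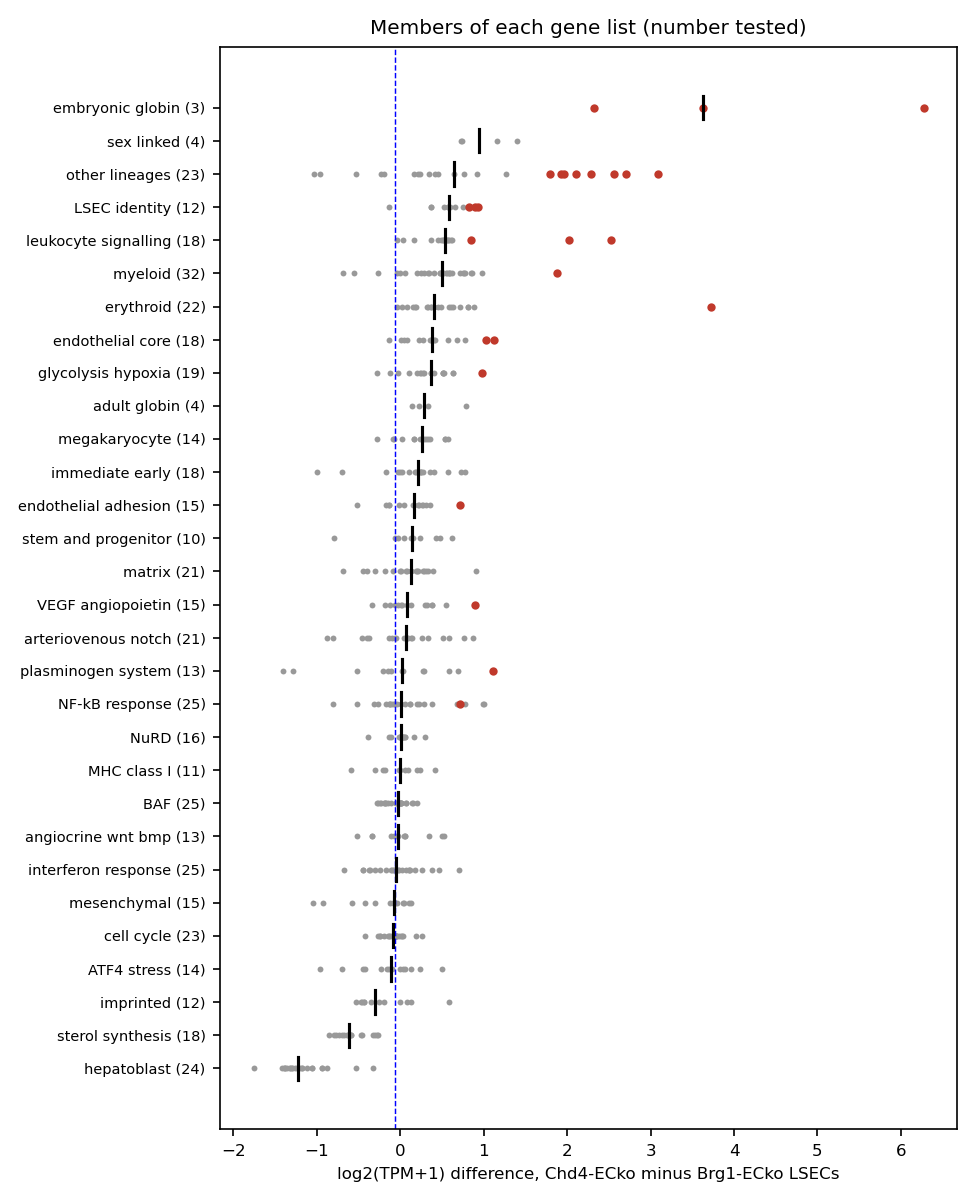
Each point is the log2(TPM+1) difference, Chd4-ECko minus Brg1-ECko, of 1 tested member of a gene list, red where the adjusted p was under 0.05; black bars are list medians and the dashed line is the median of all tested genes, -0.06. By median, embryonic globins lie farthest to the right and the hepatoblast list farthest to the left, where no member was called.

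Endothelial identity genes were among the called genes, all of them higher in Chd4-ECko than in Brg1-ECko with all libraries in the fit. Of 12 LSEC identity genes 3 were called, beside 0.394% called higher of all tested genes, 11 of 12 differences were above 0 and the median was 0.59. Of 18 endothelial core genes 2 were called, 17 of 18 differences were above 0 and the median was 0.38. Of 21 arteriovenous and Notch genes none was called, 12 differences were above 0 and 9 below, and the median was 0.07 (4 higher and 3 lower at an unadjusted p under 0.05). Mmrn2, an extracellular matrix protein of endothelium, was at 82.3, 80.5 and 93.4 TPM in Chd4-ECko and at 35.7, 38.2 and 51.5 TPM in Brg1-ECko. Control libraries were at 86.8, 106 and 76.6 TPM, which overlap Chd4-ECko and not Brg1-ECko. The difference was 1.03 (SE 0.16, adjusted p = 0.0101), and Brg1-ECko differed from control by -1.09 (adjusted p = 0.0472) where Chd4-ECko differed by -0.06. The call of Mmrn2 against control was kept in 6 of 23 other fits and lost without any 1 of 11 LSEC libraries, all but the third Brg1-ECko library, with differences from -1.25 to -0.95. Dpp4, a peptidase of the cell surface, was at 54.9, 59.3 and 61.1 TPM against 32.2, 29.7 and 35.8 TPM, with control at 54.9, 54.2 and 40.4 TPM (difference 0.83, SE 0.14, adjusted p = 0.0217). Lyve1, the hyaluronan receptor of sinusoids and lymphatics, was at 541, 593 and 597 TPM against 230, 334 and 359 TPM, with control at 573, 630 and 432 TPM (difference 0.93, SE 0.18, adjusted p = 0.0442). Cldn5, a tight junction protein, was at 130, 146 and 173 TPM against 46.8, 76.0 and 87.6 TPM, with control at 136, 175 and 115 TPM (difference 1.12, SE 0.22, adjusted p = 0.0432). Flt4, the receptor VEGFR3, was at 94.3, 75.9 and 91.9 TPM against 40.4, 42.4 and 57.7 TPM, with control at 82.1, 76.8 and 52.6 TPM (difference 0.90, SE 0.18, adjusted p = 0.0498). Against control, Brg1-ECko was called in Mmrn2 alone of these 5, with adjusted p of 0.215 for Dpp4, 0.183 for Lyve1, 0.173 for Cldn5 and 0.365 for Flt4. In Flt4 the Brg1-ECko libraries overlapped control, and in the other 4 they lay below it.

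The endothelial differences were set beside those of hepatoblast transcripts. The 24 tested hepatoblast genes all had differences below 0, with a median of -1.23, none was called and 22 had an unadjusted p under 0.05. Without the first Brg1-ECko library that median was -0.58, the median of the LSEC identity list 0.49 and that of the endothelial core list 0.20. The LSEC identity list summed to 809, 1034 and 1205 TPM in the 3 Brg1-ECko libraries and to 1586 to 1798 TPM in Chd4-ECko, so the groups did not overlap with or without that library. Without it Mmrn2 (adjusted p = 0.0198) and Dpp4 (0.0297) remained called, and Lyve1 (0.0918), Cldn5 (0.0634) and Flt4 (0.111) did not, with differences of 0.73, 0.86 and 0.80. These 3 values were the lowest that leaving out any 1 LSEC library gave for those genes. With the hepatoblast level as a covariate none of the 5 was called, with adjusted p from 0.058 for Mmrn2 to 0.226 for Lyve1. Their differences under that covariate were 0.92 for Mmrn2, 0.85 for Dpp4, 0.70 for Lyve1, 0.80 for Cldn5 and 0.83 for Flt4. With Eif2s3y as a covariate Mmrn2 alone was called (0.0362). Mmrn2 was also lost without the third Chd4-ECko library (0.0871), and Dpp4 without the second or the third Chd4-ECko or the second Brg1-ECko library (up to 0.124). Lyve1 and Cldn5 kept their call only without the second or the third control or the third Brg1-ECko library, and Flt4 only without the third control or the third Brg1-ECko library.

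**Figure D4:**
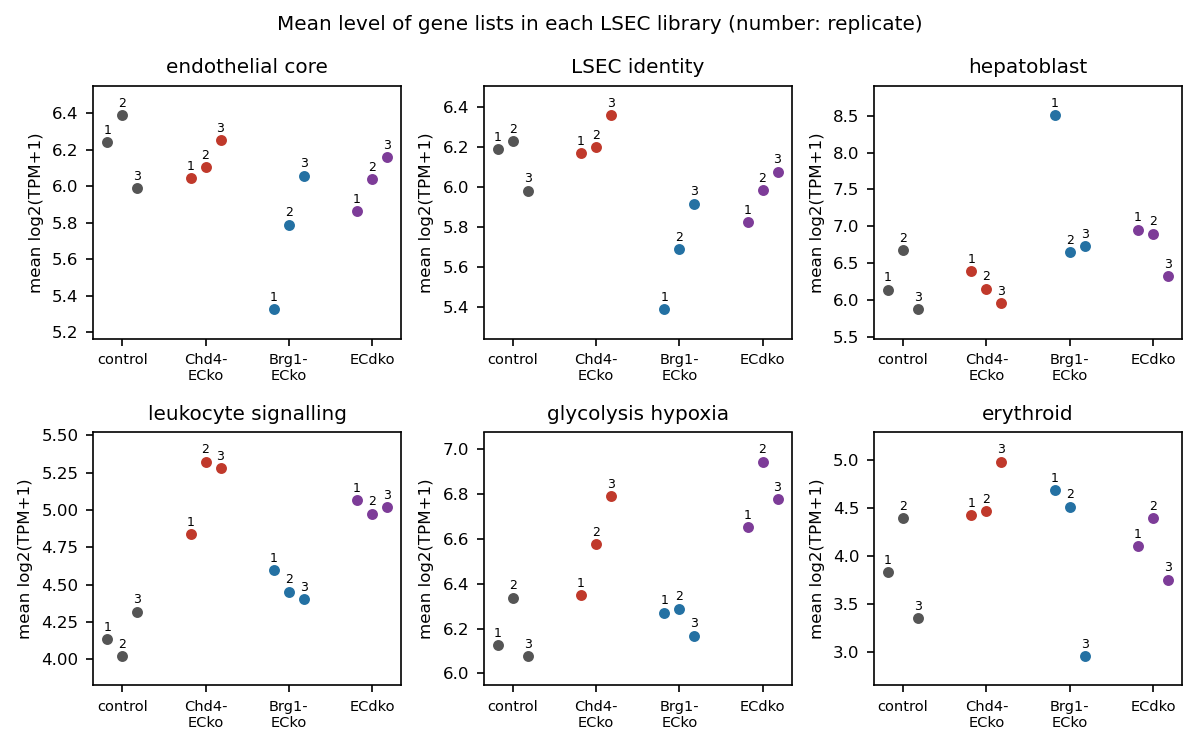
Mean log2(TPM+1) of 6 gene lists in each of the 12 LSEC libraries, with the replicate number above each point. The first Brg1-ECko library is the highest for hepatoblast genes and the lowest for both endothelial lists, and all Chd4-ECko points lie above all Brg1-ECko points for LSEC identity, leukocyte signalling and glycolysis genes.

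Glycolysis genes and complex subunits were described from further lists. Of 19 glycolysis and hypoxia genes 1 was called, beside 0.431% of all tested genes, 16 differences were above 0 and the median was 0.37 (10 higher and 0 lower at an unadjusted p under 0.05). It was Pfkp, a phosphofructokinase, at 17.1, 22.7 and 24.1 TPM in Chd4-ECko and at 10.2, 11.1 and 9.39 TPM in Brg1-ECko (difference 0.98, SE 0.18, adjusted p = 0.0313). The call was lost without any one of 6 libraries, the first control, the second and the third Chd4-ECko, the second and the third Brg1-ECko and the third Brg1/Chd4-ECdko (adjusted p up to 0.205), and with the Eif2s3y covariate (0.0522) or the hepatoblast covariate (0.0735). Of 16 NuRD genes tested none was called, with a median of 0.01, and of 25 BAF genes none was called, with a median of -0.03 (1 NuRD gene and 0 BAF genes at an unadjusted p under 0.05). Of 23 cell cycle genes none was called, with a median of -0.09 and 0 at an unadjusted p under 0.05. The 18 sterol synthesis genes all had differences below 0 with a median of -0.61, none called, and a median of -0.15 without the first Brg1-ECko library.

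The 5 genes that were lower in Chd4-ECko than in Brg1-ECko were Apcs, Nts, C130074G19Rik, Chn2 and Gstm7. Apcs, the serum amyloid P component made by hepatocytes, was at 1.496, 3.408 and 2.527 TPM in Chd4-ECko and at 15.7, 7.23 and 8.02 TPM in Brg1-ECko (difference -1.67, SE 0.28, adjusted p = 0.0207). Nts, the neurotensin precursor, was at 2.07, 2.65 and 2.18 TPM against 4.63, 10.3 and 8.01 TPM (difference -1.33, SE 0.26, adjusted p = 0.0442), and was the 1 gene called higher in Brg1-ECko than in control, by 1.76 (adjusted p = 0.0472). That call against control was kept in 5 of 22 other fits and lost without any 1 of 11 LSEC libraries, all but the first Brg1-ECko library. Chn2, a GTPase-activating protein for Rac, was at 3.66, 4.10 and 3.80 TPM against 6.73, 10.7 and 11.4 TPM, with control at 3.87, 4.03 and 3.77 TPM (difference -1.10, SE 0.19, adjusted p = 0.0221). In Apcs the first Brg1-ECko library was the highest of its group. In Nts and Chn2 the first Brg1-ECko library, which held the most hepatoblast transcripts, was the lowest of its group. Gstm7, a glutathione transferase, differed by -1.06 (adjusted p = 0.0247) and C130074G19Rik by -1.17 (adjusted p = 0.0217), and the first Brg1-ECko library was the highest of its group in both. Without that library Nts (adjusted p = 0.00511), Chn2 (0.00153), Apcs (0.0259) and C130074G19Rik (0.0175) remained called and Gstm7 (0.0536) did not. All 5 were lost without the third Chd4-ECko library, with adjusted p between 0.114 and 0.236. All 5 were also lost without the first Chd4-ECko library, all but Apcs without the second, Chn2, Gstm7 and Nts without the second Brg1-ECko library, and Chn2 and Nts without the third. Nts was further lost without the first or the third control or the second or the third Brg1/Chd4-ECdko library. With Eif2s3y as a covariate none of the 5 was called, with adjusted p from 0.0575 for Chn2 to 0.149 for Nts. With the hepatoblast covariate Apcs (0.110), C130074G19Rik (0.0928) and Gstm7 (0.138) were lost, and Nts (0.0151) and Chn2 (0.0030) were kept. Without the first Brg1-ECko library 19 further genes were lower in Chd4-ECko, led by Calca (difference -2.67, adjusted p = 0.0145), Stmn3 (-2.21, adjusted p = 0.000575) and Lhx6 (-2.19, adjusted p = 0.00153), named after their values were seen. Among them were Tagln (-1.32, adjusted p = 0.00543) and Myh11 (-1.46, adjusted p = 0.00314), which encode proteins of smooth muscle. Endothelial genes were among them too, Procr, the endothelial protein C receptor (-1.58, adjusted p = 0.0259), Aplnr, the apelin receptor (-1.23, adjusted p = 0.0160), and Gja4, a gap junction protein of arteries (-0.999, adjusted p = 0.0285), as was Bmp4, a BMP ligand (-0.95, adjusted p = 0.0369). With all libraries these 4 were not called, with adjusted p from 0.115 for Procr to 0.549 for Bmp4.

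Set against control, the 58 genes fell into more than 1 form. In 40 of them the Chd4-ECko mean was farther from control than the Brg1-ECko mean and in 18 the reverse, while over all 13444 genes Chd4-ECko was the farther in 5656. The 13 higher genes in which Brg1-ECko was the farther had a median of 0.11 for Chd4-ECko against control and -0.88 for Brg1-ECko against control, and the other 40 had 1.23 and -0.19. Against control 95 genes, 0.707% of those tested, were called in Chd4-ECko and 3, 0.0223%, in Brg1-ECko, which were Nts, Mmrn2 and Septin1, with 872 (6.49%) and 1302 (9.68%) at an unadjusted p under 0.05. All of these comparisons share the control libraries. The DEGs of Chd4-ECko against control numbered 70 (0.521%) and ran from 28 without the third Chd4-ECko library to 147 without the first. Those of Brg1-ECko against control numbered 2 (0.0149%), and there were 0 without any one of 10 LSEC libraries, all but the first and the third Brg1-ECko library.

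Brg1/Chd4-ECdko LSECs entered neither side of the comparison. On a scale where the Brg1-ECko mean of log2(TPM + 1) is 0% and the Chd4-ECko mean is 100%, the median of the 58 genes was 55.6%, and 32 of the 58 lay above 50%, beside a median of 23.02% and 5310 above 50% over all 13444 genes. Tcfl5 was at 100% of the way to Chd4-ECko, with Brg1/Chd4-ECdko libraries at 11.48, 14.98 and 15.44 TPM. Hbb-bh1 lay at 82.1%, with 130, 135 and 146 TPM, and Septin1 at 75.7%. Thy1 lay at 12.0%, with libraries at 2.74, 2.90 and 3.03 TPM next to Brg1-ECko and control, and Prl3b1 at 4.53% and Cpa1 at 1.14%. Mmrn2 lay at 36.0% and Lyve1 at 45.7%. These values are a description without a test, and the genes were chosen by the difference that forms the scale. Where that difference is near 0 the scale is unstable, as in Il10ra at -455%. The values over all genes are therefore a poor background for the 58.

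**Figure D5:**
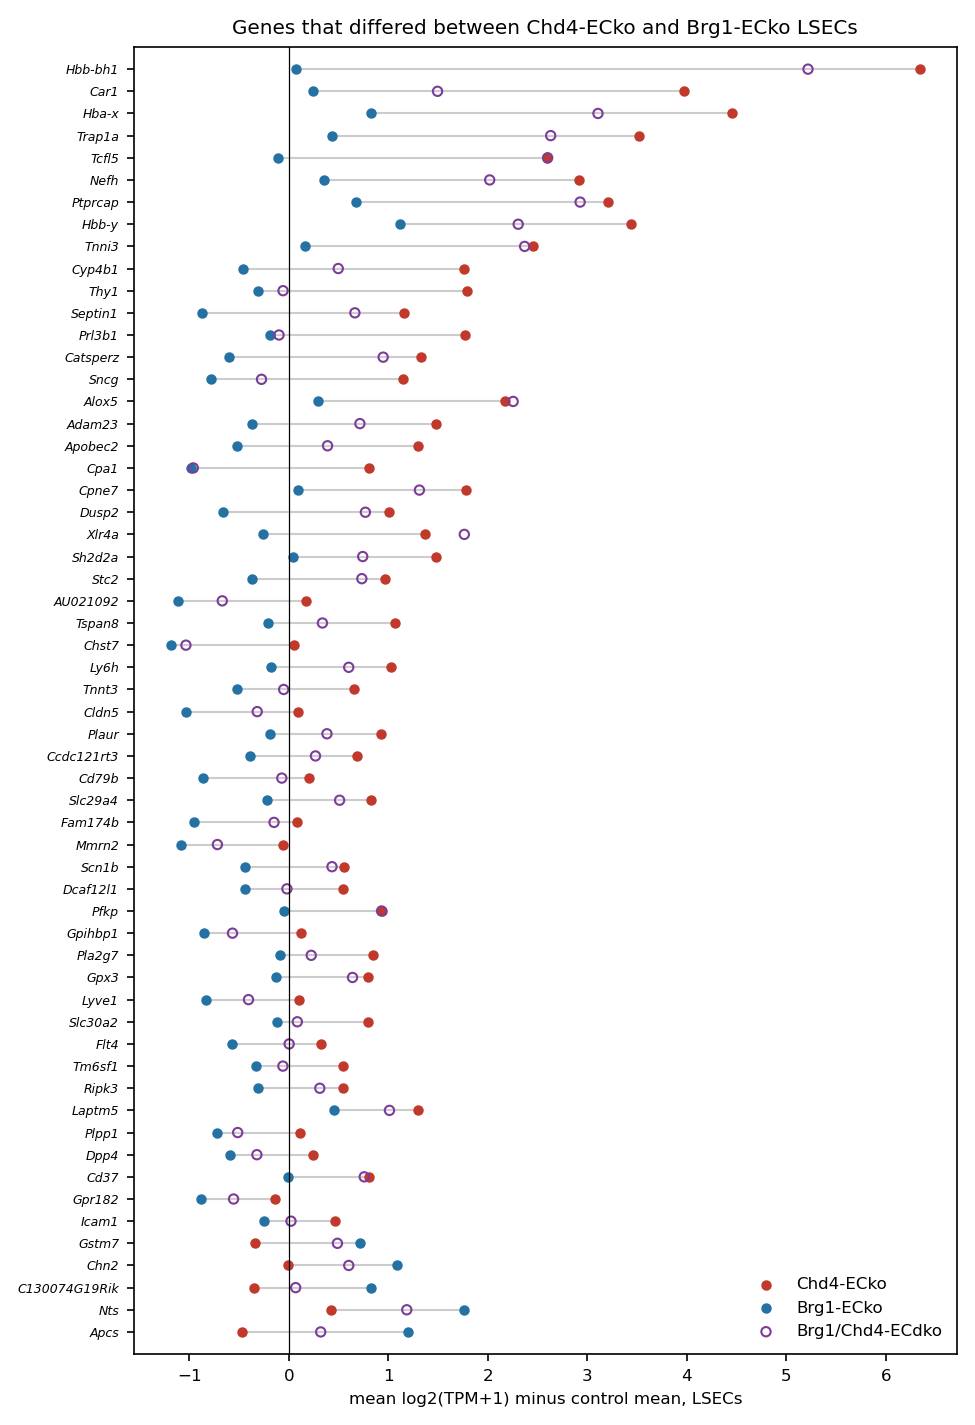
For each of the 58 called genes the mean log2(TPM+1) minus the control mean is shown for Chd4-ECko (red), Brg1-ECko (blue) and Brg1/Chd4-ECdko (open) LSECs, sorted by the difference between the single mutants. Red points lie right of blue points in the 53 upper genes; the open points lie at Chd4-ECko for Tcfl5 and at Brg1-ECko for Cpa1.

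The mean of both single mutants differed from control in 29 genes, 0.216% of those tested, 27 higher and 2 lower, and in 915 (6.81%) at an unadjusted p under 0.05. Of the 29, 13 (0.0967%) were DEGs, all higher. The 6 with the largest differences were Hbb-bh1 (3.20), Hbb-y (2.28), Car1 (2.11), Hba-x (2.64), Trap1a (1.98) and Nefh (1.63), and all 6 were also called between the mutants. In these the Brg1-ECko mean differed from control by 0.07 in Hbb-bh1, 1.12 in Hbb-y, 0.24 in Car1, 0.82 in Hba-x, 0.43 in Trap1a and 0.35 in Nefh, none called. Of the 29, 26 were called in Chd4-ECko against control and 0 in Brg1-ECko against control, with medians of 1.25 and 0.61, and Chd4-ECko was the farther from control in 25. In all, 8 of the 29 were called between the mutants and 21 were not, 19 of those higher than control, which does not show an effect in each mutant. At an unadjusted p under 0.05 by limma, 23 of the 29 differed from control in each single mutant. These genes were chosen by the mean of the same libraries. The following were named after their values were seen. Emilin2, a matrix glycoprotein, was at 12.8, 14.6 and 15.5 TPM in Chd4-ECko and 12.1, 10.3 and 8.54 TPM in Brg1-ECko, all above control at 5.96, 4.06 and 4.30 TPM (mean of both against control 1.19, SE 0.15, adjusted p = 0.00938; between mutants 0.44, adjusted p = 0.379). Itgal, the leukocyte integrin that binds ICAM1, was at 27.9, 36.7 and 44.4 TPM and 24.94, 22.995 and 26.92 TPM, above control at 12.1, 10.2 and 13.7 TPM (1.26, SE 0.18, adjusted p = 0.00953). Il10ra, the interleukin-10 receptor, was at 5.77, 9.80 and 11.7 TPM and 10.9, 10.5 and 7.94 TPM, above control at 3.98, 3.03 and 3.84 TPM (1.15, adjusted p = 0.0241; between mutants -0.13, adjusted p = 0.887). Of the 18 leukocyte signalling genes 5 were called in the mean of both mutants, beside 0.216% of all tested genes. Without any mutation, the non-EC fraction already held the higher level of 22 of the 29 genes, beside 7136 of all 13444 tested. The part of blood cells in these differences was not tested. Mecom, a transcription factor of endothelium and blood stem cells, was lower in the mean of both, at 10.04, 7.945 and 8.775 TPM in Chd4-ECko and 5.85, 5.23 and 8.39 TPM in Brg1-ECko beside 14.4, 17.4 and 12.5 TPM in control (-0.87, SE 0.16, adjusted p = 0.0368). Fam124a was lower in that mean as well (-0.77, SE 0.14, adjusted p = 0.0363). All 3 control libraries had high Y-linked transcripts, and with the Eif2s3y covariate 1 DEG was left in this contrast. Leaving out the second control library also left 1 DEG and leaving out the first left 2, while without the first Chd4-ECko library there were 37 and without the first Brg1-ECko library 21.

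The same direct comparison in non-EC liver cells called no gene among 12223 tested, with limma and 6 libraries of the 2 genotypes in a fit of 12. Genes at an unadjusted p under 0.05 numbered 354, 2.9% of those tested. The 3 smallest p were those of Hbb-bh1, Tcfl5 and Tnnc1. Hbb-bh1 was at 21.4, 149 and 107 TPM in Chd4-ECko non-EC cells and at 1.58, 6.76 and 2.28 TPM in Brg1-ECko non-EC cells (difference 4.14, adjusted p = 0.489). Tcfl5 was at 3.01, 7.96 and 6.01 TPM against 1.37, 1.03 and 1.26 TPM (difference 1.51, adjusted p = 0.489). Tnnc1, a troponin of heart and slow muscle, was at 21.4, 14.2 and 21.8 TPM against 40.3, 35.3 and 38.8 TPM (difference -0.98, adjusted p = 0.489). In these 3 genes the non-EC groups did not overlap. Of the 58 genes called in LSECs, 38 were tested in non-EC cells and 11 of these had an unadjusted p under 0.05. Without the first Chd4-ECko non-EC library 8 DEGs were called, and with array weights 219.

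The value of Chd4-ECko minus Brg1-ECko in LSECs was above that in non-EC cells for 14 of 13775 genes, 0.102% of those tested, in a fit of all 24 libraries, and below it for none. At an unadjusted p under 0.05 there were 608 genes (4.41%), 395 with the LSEC value above and 213 with it below, which counts the sign of the difference of differences and not its size. All 14 are among the 58. Leaving out the first or second Chd4-ECko LSEC library left 9, and leaving out the first Brg1-ECko LSEC library gave 23. That fit treated the libraries of both fractions as separate embryos, although per the methods both fractions were separated from the digested livers, so that 1 embryo may have given both. Libraries of 1 genotype and number were alike in Eif2s3y, above or below 10 TPM, in 12 of 12 pairs of fractions. With a term for each such pair, an alternative chosen after seeing the data, 15 genes were called, 12 of them among the 14, and Ly6h (adjusted p = 0.0951) and AU021092 (0.128) were not. Septin1 differed by 2.03 in LSECs and by 0.43 in non-EC cells, where it was at 25.4, 40.3 and 34.9 TPM in Chd4-ECko and 23.7, 27.9 and 21.5 TPM in Brg1-ECko (difference of differences 1.60, SE 0.20, adjusted p = 0.000276). Plaur was higher in Chd4-ECko in LSECs and in non-EC cells lay at 3.67, 3.21 and 2.88 TPM in Chd4-ECko and 5.87, 4.50 and 4.39 TPM in Brg1-ECko (difference of differences 1.58, SE 0.26, adjusted p = 0.00651). For 10 of the 14, Cyp4b1, Sncg and Thy1 among them, too few non-EC libraries reached 1 TPM for a test there, so that the non-EC difference was bounded by low levels and the difference of differences restates the LSEC difference. The test bears on both fractions in the other 4, Septin1, Plaur, Nefh and Car1. Icam1, with 21.5, 21.3 and 19.9 TPM in Chd4-ECko and 22.9, 25.1 and 23.1 TPM in Brg1-ECko non-EC cells, was not called in this test (0.89, adjusted p = 0.524).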

How the data were processed

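RNA of LSECs and non-EC cells from E12.5 livers was sequenced by the authors, who digested tissue with inhibitors of transcription and translation, trimmed repeated guanines and used CLC Genomics Workbench with the mouse build GRCm39/mm39. Per gene, the authors deposited TPM, for 25361 genes. The 8 deposited columns of group means were not used, and 0 columns lay outside the design. Here log2(TPM + 1) was fitted with limma 3.58.1 in R 4.3.3, one model of 12 libraries per fraction and one of 24, with a mean per genotype, moderated variances with a trend and two-sided p-values adjusted by the Benjamini-Hochberg method. Genes needed at least 1 TPM in 3 libraries. DEGs had an adjusted p under 0.05 and a difference above 1 in size. Replicates were 3 per group, and TPM hold no depth, so no counting error is given. Positions, promoters and overlaps came from GRCm39 with GENCODE M39. The 30 gene lists and the members of the comparison were chosen with earlier results of these data known. Named were genes of interest, the 12 largest DEGs in each direction, called list members, the 6 largest shared DEGs and the 3 smallest p in non-EC cells and in the test of fractions. The model was tested on simulated data. Alternatives are given in the closing section. Figures were drawn with matplotlib. Listed genes that did not match the table were not analysed here.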

Additional observations from a re-analysis of the deposited data

Results flagged for a closer look

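In 4 genes with levels high enough for a test in both fractions, the difference between Chd4-ECko and Brg1-ECko was larger in LSECs than in non-EC cells, tested as the difference of both differences over 24 libraries with limma. On the log2(TPM + 1) scale the values were 1.60 for Septin1 (adjusted p = 0.000276), 1.58 for Plaur (0.00651), 1.72 for Nefh (0.0114) and 2.80 for Car1 (0.0432). In 10 further genes past the threshold too few non-EC libraries reached 1 TPM for a test there, and the value restates the difference in LSECs, so it is given as a description. It was 2.29 for Cyp4b1, 2.04 for Sncg, 1.78 for Adam23, 1.97 for Thy1, 1.28 for Sh2d2a and 1.80 for Cpa1. It was 1.23 for Ly6h, 1.32 for AU021092, 1.79 for Apobec2 and 1.96 for Prl3b1, which reached 1 TPM in Chd4-ECko LSECs alone.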

How the results depend on the processing

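Of 29 named genes called between Chd4-ECko and Brg1-ECko LSECs, leaving aside Prl3b1, which could be tested only because it was high in Chd4-ECko, 11 stayed past the threshold in each of up to 23 other fits, 18 lost it in at least 1, and 0 changed sign. TPM hold no depth, so low genes cannot be given a counting error, and the causes of the changes below were not tested. The 41 DEGs (36 higher, 5 lower) were 26 (22 higher) with a mean of at least 5 TPM, 19 (19 higher, 0 lower) from the 6 libraries alone, and 22 (22 higher, 0 lower) with the Eif2s3y covariate, chosen after seeing the data. Lower DEGs were 0 without a filter on low values, 3 with quantile normalization, 8 with the replicate block, 13 with array weights and 27 with the hepatoblast covariate. The 13 DEGs of the mean of both mutants were 29 without a fold threshold, 27 with a pseudocount of 0.1 TPM, 8 with quantile normalization, 30 with array weights, 49 with the hepatoblast covariate, 4 from the groups compared alone and 1 with the Eif2s3y covariate. The 70 DEGs of Chd4-ECko against control were 45 without a filter, 46 with quantile normalization, 116 with the hepatoblast covariate and 33 with the Eif2s3y covariate. The 2 of Brg1-ECko against control were 0 without a filter, without mitochondrial genes, without a variance trend, from the groups compared alone and with the Eif2s3y covariate, 1 with a mean of at least 5 TPM, 5 with the replicate block, 13 with array weights and 9 with the hepatoblast covariate. The 0 in non-EC cells became 219 with array weights. The 14 genes that differed between fractions became 4 with a pseudocount of 0.1 TPM or a mean of at least 5 TPM, 79 with array weights, 22 with the hepatoblast covariate and 9 from the groups compared alone, and were 15 with the embryo block, also chosen after seeing the data. The fit of array weights stopped before convergence in 2 models.

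Leaving out 1 library at a time gave 19 to 58 DEGs between the mutants (19 to 38 higher, 0 to 20 lower), 1 to 37 for the mean of both mutants, 28 to 147 for Chd4-ECko and 0 to 6 for Brg1-ECko against control, 9 to 23 between fractions and 0 to 8 in non-EC cells. Libraries of the same replicate number correlated in their deviations by 0.278, 0.321 and 0.044, and the third Chd4-ECko library correlated best with the second Brg1-ECko library, so the number was not taken as a pairing. With the replicate block 83 genes were called between the mutants, of which 55 are among the 58. The median over all genes was -0.06, and quantile normalization moved it by less than 0.1.

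Small differences changed sign. Smarca4 (-0.05) was 0.0081 with quantile normalization, 0.021 with array weights and 0.11 with the hepatoblast covariate, and ran from -0.17 without the second Brg1-ECko library to 0.11 without the second Chd4-ECko library, with 0.08 without the first Brg1-ECko library. Rela (-0.06) was 0.016, 0.0088 and 0.023 in the same 3 fits, and ran from -0.15 without the third Chd4-ECko library to 0.030 without the second, with 0.023 without the first Brg1-ECko library. Afp was 0.10 and Alb 0.076 with the hepatoblast covariate, which holds both genes. Il1b (0.12) ran from -0.032 without the third to 0.37 without the second Brg1-ECko library. Of 1380 list medians and counts under other settings, 1261 stayed within the bounds set for a change and 119 moved.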
